A study of Homo sapiens with 2 samples.

Results

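Both arms of the human miR-21 hairpin, hsa-miR-21-5p and hsa-miR-21-3p, were followed in BEAS-2B, a line of immortalised epithelial cells from human bronchus, wild type per the labels. They were taken by name and made up 2 of the 2904 entries of the deposited count table. The cells received manganese, a trace metal that enzymes need and that harms cells at high exposure, or vehicle, and small RNA was collected at 24 h. Neither the dose nor the vehicle is given in the sources used here. There was 1 library per group, with 1091070 counts in the manganese library and 1064179 counts in the control library. No difference below therefore has a replicate check or a p-value, and each describes 2 libraries of 1 cell line rather than 2 conditions. Both arms were among the 403 measured entries, those with at least 20 counts over both libraries.

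A microRNA hairpin is cut from its primary transcript by Drosha and from its precursor by Dicer, which leaves a short duplex of a 5p and a 3p arm. One arm, the guide, is kept by an Argonaute protein and pairs with messenger RNAs mainly through its seed, bases 2 to 8, while the other arm, the passenger, is mostly degraded. In most cell types miR-21-5p is the guide, an oncogenic miRNA whose known targets include the tumour suppressor PDCD4, and its gene is induced by AP-1, STAT3 and NF-kB in inflamed or transformed epithelium.

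The hairpin MIR21 lies at chr17:59841266-59841337 on the plus strand of GRCh38.p14. In the GENCODE annotation of GRCh38 it falls inside VMP1, a gene for a membrane protein of autophagy that spans chr17:59707192-59842255 on the same strand, and it overlaps 1 of 17 annotated VMP1 transcripts, in an exon of a retained-intron transcript. The RefSeq hairpin of 72 bases is shown with the 22 bases of miR-21-5p in capitals, from position 8 to position 29, since the counts concern which side of this molecule was recovered.
MIR21: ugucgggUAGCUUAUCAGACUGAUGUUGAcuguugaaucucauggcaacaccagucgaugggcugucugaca

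Among 2370 mature miRNA names with a single RefSeq sequence, 2 carry the seed of miR-21-5p, AGCUUAU. They are shown with the seed in capitals because miRNAs with one seed can share target sites. The other is miR-590-5p, whose mature sequence lies at chr7:74191213-74191234 on the plus strand of GRCh38.p14, while that of miR-21-5p lies at chr17:59841273-59841294.
hsa-miR-21-5p: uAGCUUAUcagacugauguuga
hsa-miR-590-5p: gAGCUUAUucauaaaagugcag

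The guide arm miR-21-5p was the most abundant entry of both libraries. It had 235815 counts in the manganese library and 285179 counts in the control library. Its share of all counts was 21.6% (95% Clopper-Pearson interval 21.5 to 21.7) with manganese and 26.8% (26.7 to 26.9) in the control, so the manganese library held the smaller count and the smaller share. All intervals cover counting error only, since neither group had a replicate library. No source used here mentions molecular identifiers that would mark PCR copies, so the intervals may be too narrow even for counting error. Adding up entries from the rarest upward, the lowest 769 of the 781 entries with counts in the manganese library had 222726 counts together, fewer than miR-21-5p alone. In the control library the lowest 787 of 797 entries had 269758 counts together, again fewer than miR-21-5p.

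The passenger arm miR-21-3p had 26 counts in the manganese library and 26 counts in the control library. A count of 26 has an exact Poisson interval of 16.98 to 38.1. Per library this was 0.00238% (0.00156 to 0.00349) of all counts with manganese and 0.00244% (0.00160 to 0.00358) in the control. It ranked 285 by count in the manganese library and 278 in the control library, where 90 and 97 other entries had counts inside that Poisson interval, so its order among them is not resolved at this depth. A further entry of the table, p-hsa-miR-21, whose prefix is not explained in the sources used here, had 0 counts in both libraries.

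**Figure D1:**
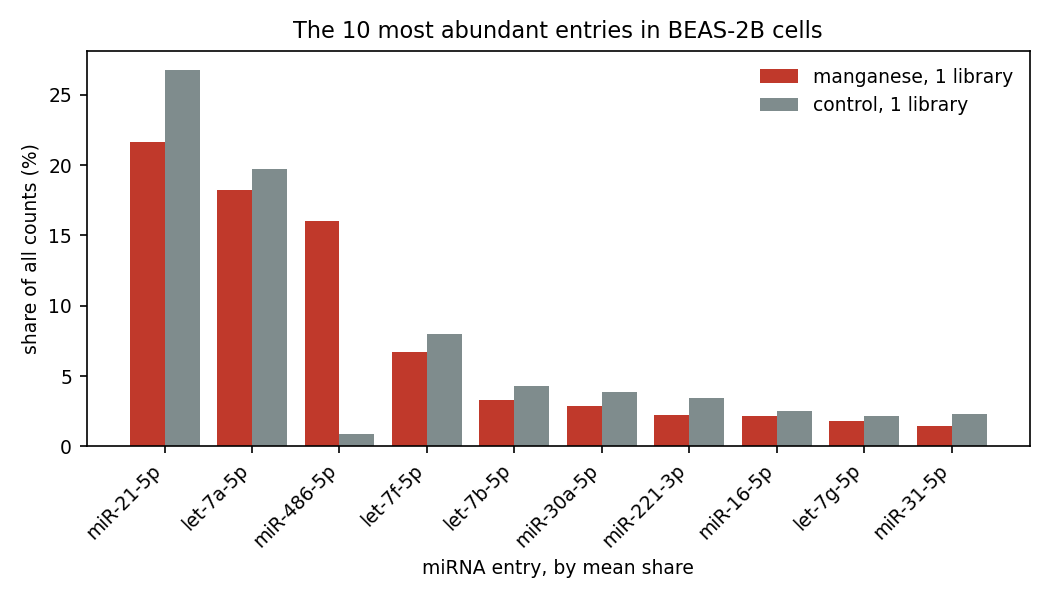
Bars give the share of all counts (%, y axis) of the 10 most abundant entries (x axis) in the manganese library and the control library, 1 library each, so there are no error bars. The entry miR-21-5p leads in both, at 21.6% with manganese and 26.8% in the control, and miR-486-5p stands at 16.02% with manganese against 0.902% in the control.

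The 2 arms of miR-21 were recovered very unequally, with 9070 counts of miR-21-5p for each count of miR-21-3p in the manganese library and 10968 in the control library. The passenger arm was 0.0110% (0.00720 to 0.0162) of both arms with manganese and 0.00912% (0.00596 to 0.0134) in the control. For comparison, 83 hairpins had both arms as single rows of the same name stem with at least 20 counts of the rarer arm over both libraries. The median share of the rarer arm over these hairpins was 10.7% with manganese and 11.8% in the control. Of the 81 hairpins with no count of 0, miR-21 had the lowest share of the rarer arm in each library. The next were let-7g, with a 3p share of 0.0612% (0.0316 to 0.107) with manganese and 0.0735% (0.0428 to 0.118) in the control, and miR-26b, with 0.127% (0.0750 to 0.200) and 0.0969% (0.0501 to 0.169). The counting intervals of miR-21 and let-7g do not overlap in either library.

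A comparison with let-7a, a growth-restraining miRNA and the next most abundant guide, shows how few passenger reads miR-21 gave. The arm let-7a-5p had 199234 counts with manganese and 210027 in the control, both below those of miR-21-5p. Its partner let-7a-3p had 812 counts with manganese and 763 in the control, against 26 and 26 for miR-21-3p. A second set of 44 hairpins had at least 1000 counts of the commoner arm in each library and any count of the rarer arm. Hairpins whose rarer arm had no count in either library were left out, so more one-sided hairpins may be missing. Among the 44, miR-486 had a lower share of its rarer arm than miR-21 in both libraries. That share rested on 2 counts of miR-486-3p with manganese and 0 in the control. The hairpin let-7i had a lower share than miR-21 in the control library alone, on 1 count of let-7i-3p with manganese and 0 in the control. These hairpins were chosen after their values were seen.

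**Figure D2:**
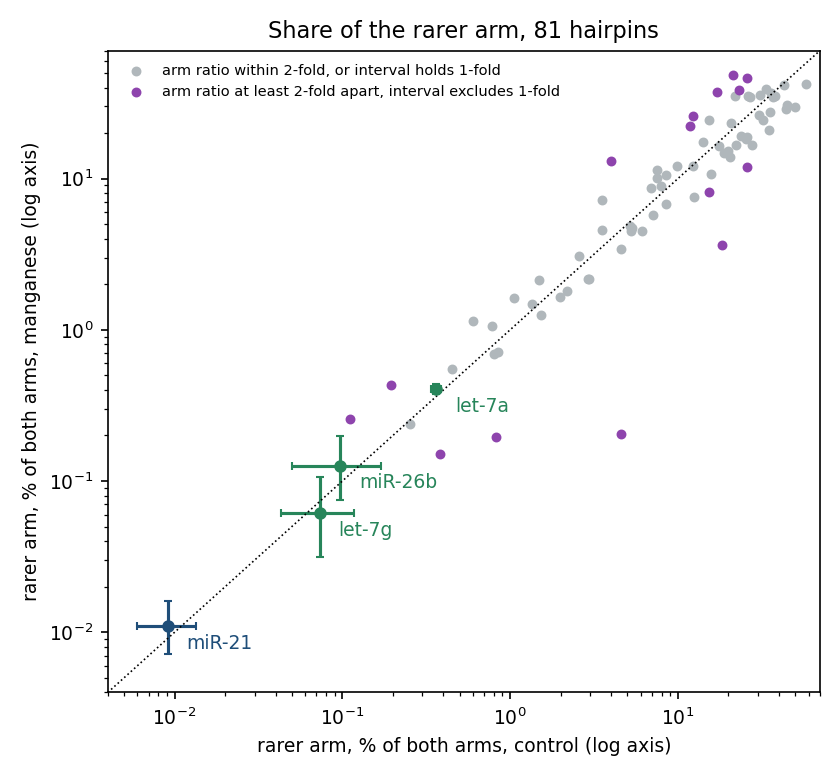
Each point is 1 of 81 hairpins with no count of 0, placed by the share of its rarer arm (% of both arms, log axes) in the control library (x axis) and in the manganese library (y axis), and the dotted line marks equal shares. Bars on the 4 labelled hairpins are 95% Clopper-Pearson intervals, purple marks arm ratios at least 2-fold apart with an interval that excludes 1-fold, and miR-21 lies alone at the lower left, at 0.0110% with manganese and 0.00912% in the control.

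The arm ratio needs no library scaling, since both arms come from one library. The ratio of miR-21-3p to miR-21-5p in the manganese library was 1.21 times that in the control library, with a log-normal interval from the 4 counts of 0.702 to 2.08. At the control ratio, 21.5 counts of miR-21-3p would accompany the 235815 counts of miR-21-5p with manganese, and 26 were found. That is a difference not detectable at this depth: with the other counts as they were, at least 36 or at most 10 counts of miR-21-3p with manganese would have put 1-fold outside the interval.

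Of the 83 hairpins, 16 (19.3%) had arm ratios at least 2-fold apart between the libraries with an interval that excluded 1-fold, and miR-21 was not among them. In 9 of the 16 the rarer arm took a larger part with manganese and in 7 a smaller part. Over all 83 hairpins the median log2 change of the rarer over the commoner arm was −0.11, with quartiles of −0.48 and 0.42, and miR-21, at 0.27, lay inside these quartiles. The nearest to miR-21 were miR-222, with a change of the rarer over the commoner arm of 1.22 (0.609 to 2.45), and miR-181c, with 1.19 (0.642 to 2.22). The next nearest were the hairpins of miR-589, miR-382 and miR-411. None of these 5 had an interval that excluded 1-fold. At the other end, the rarer arm of miR-18a had 3.59 times (1.81 to 7.14) its control ratio, with 32 and 12 counts of miR-18a-3p, and that of miR-106b, of the miR-25 cluster, had 3.42 times (3.03 to 3.86). On the opposite side miR-99a-3p had 1 count with manganese and 22 in the control, an arm ratio of 0.0427 (0.00574 to 0.318) times that in the control. The others furthest upward were the hairpins of miR-3613 at 2.89 times, miR-324 at 2.49 times and miR-342 at 2.45 times. Those furthest downward were the hairpins of miR-140 at 0.166 times, miR-10a at 0.237 times, miR-29c at 0.387 times and miR-2682. The 3p arm of miR-2682 had 0 counts with manganese and 20 in the control. With 3 counts in place of 0, its arm ratio was 0.229 (0.0603 to 0.866) times that in the control.

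The fold of miR-21-5p between libraries was close to 1 and depended on the scaling. Library sizes were scaled with TMM factors, which assume that most entries do not differ, and gave miR-21-5p 220427 CPM (scaled counts, in relation to the scaled library size) with manganese and 262759 CPM in the control. The fold, manganese over control, was 0.839 (0.834 to 0.843), or 1.19-fold lower with manganese. This is short of the rule of size used for calls, that is 2-fold or more up or down and 1-fold outside the interval, which 26 measured entries (6.45%) passed as lower and 52 (12.9%) as higher. An interval below 1-fold at any size, as that of miR-21-5p, was found in 115 of the 403 measured entries (28.5%), and one above 1-fold in 86 (21.3%).

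The erythroid miR-486-5p went the other way, at 174822 counts with manganese and 9597 in the control, a fold of 18.5. With miR-486-5p left out of the totals, the share of miR-21-5p was 25.7% (25.6 to 25.8) with manganese and 27.0% (26.96 to 27.1) in the control, and the difference of the shares became −1.30 percentage points in place of −5.18. Scaled by those totals, the fold was 0.952 (0.947 to 0.957), and by totals without the whole blood cell and 19q13 lists it was 0.954 (0.949 to 0.960). Every one of the 6 scalings left miR-21-5p below 1-fold, from 0.807 by total counts to 0.954. The scalings moved the median log2 fold over the 403 measured entries between −0.14 and 0.10, and miR-21-5p lay at −0.17 relative to that median, a value that no scaling can alter since a scaling shifts every log2 fold alike.

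For miR-21-3p the fold was 1.01 (0.566 to 1.82) with TMM factors, at 24.3 CPM with manganese and 23.96 CPM in the control. It was 0.975 by total counts and 1.15 without miR-486-5p, so its side of 1-fold changed with the scaling and its interval held 1-fold under each of the 6. Of 72 other entries with a similar depth, 40 to 80 counts over both libraries, 45 also had intervals that held 1-fold, while 16 passed the rule as higher and 7 as lower. Their log2 folds had a median of 0.073 and quartiles of −0.45 and 0.83.

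**Figure D3:**
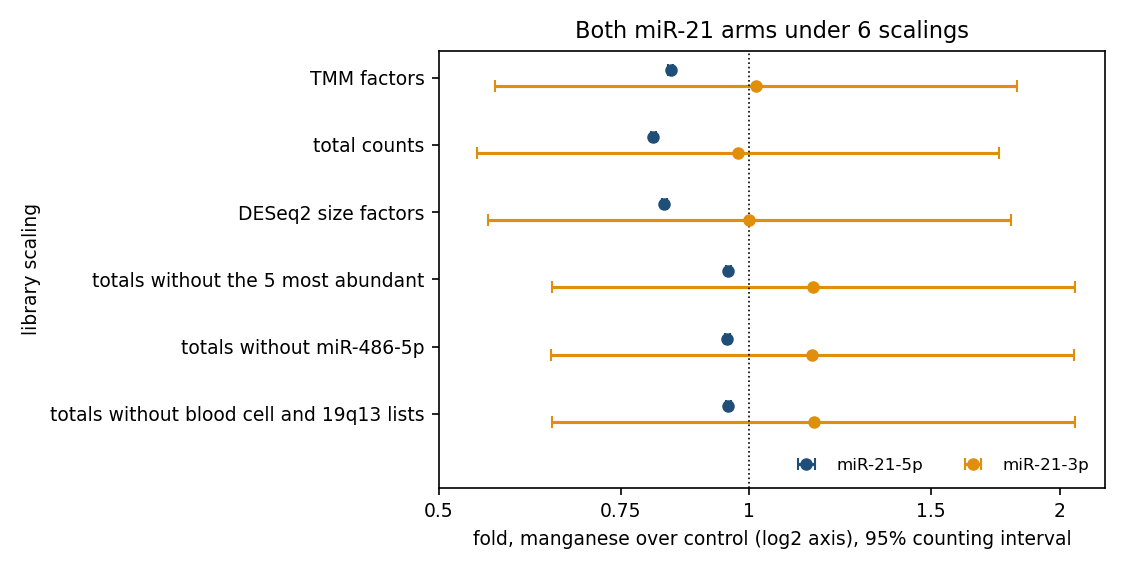
Points give the fold, manganese over control (x axis, log2 scale), of miR-21-5p and miR-21-3p under 6 library scalings (y axis), with 95% counting intervals that are narrower than the point for miR-21-5p. The 5p arm lies between 0.807 and 0.954, left of the dotted line at 1-fold, and the interval of the 3p arm crosses that line in each row.

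A rank of folds is the same under every scaling. Of 56 other entries with at least 1000 counts in each library, 20 had a lower fold than miR-21-5p and 36 a higher one. With the minimum at 100 counts, 63 of 145 others were lower. Set against the other 9 of the 10 most abundant entries one at a time, miR-21-5p was lower with manganese relative to 5 and higher relative to 4, with intervals that excluded 1-fold in all 9. The ratio change was 0.955 against let-7f-5p, 0.933 against miR-16-5p and 0.975 against let-7g-5p, and it was 1.05 against let-7b-5p and 1.08 against miR-30a-5p. Relative to let-7a-5p the miR-21-5p level was 1.18 times as high with manganese and 1.36 times as high in the control, a ratio change of 0.872 (0.865 to 0.879). Relative to miR-221-3p, an AP-1-linked oncogenic miRNA, it was 9.67 times as high with manganese and 7.78 times in the control, a ratio change of 1.24 (1.22 to 1.27). The largest such change upward was against miR-31-5p, at 1.28 (1.25 to 1.30), and the largest downward was against miR-486-5p, at 0.0454 (0.0444 to 0.0464).

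The entries with folds nearest to miR-21-5p, among those with at least 1000 counts in each library, were let-7e-5p at 0.855 (0.829 to 0.881), the joined entry of p-hsa-miR-235 copies at 0.819 (0.775 to 0.866), miR-125a-5p at 0.860 (0.813 to 0.910), let-7g-5p at 0.860 (0.844 to 0.877) and miR-30e-5p at 0.816 (0.793 to 0.840). The measure of likeness was the distance in log2 fold over 2 libraries. For miR-21-3p the nearest were miR-186-5p, miR-30d-5p, miR-92b-3p, miR-335-5p and miR-30b-5p, with folds of 0.995 to 1.02, although the interval of miR-21-3p is wide enough to hold many other entries.

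**Figure D4:**
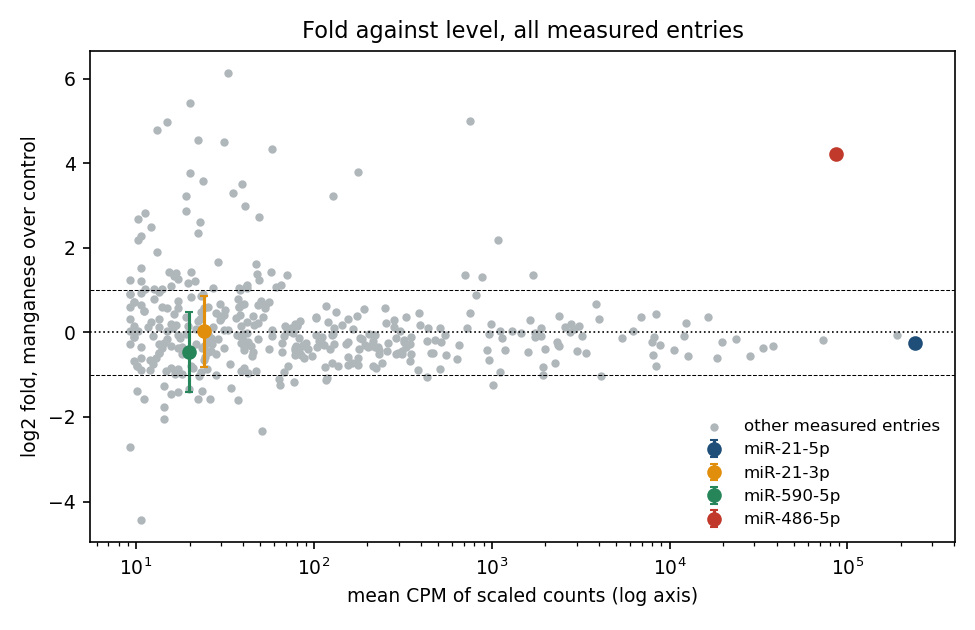
Each point is 1 of 403 measured entries, with its mean CPM of scaled counts (x axis, log scale) and its log2 fold, manganese over control (y axis), where a count of 0 is set to 3 counts. Bars are 95% counting intervals of the named entries, dashed lines mark 2-fold, and miR-21-5p (−0.25), miR-21-3p (0.02) and miR-590-5p (−0.45) lie between them while miR-486-5p (4.21) lies far above.

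The seed mate miR-590-5p, shown above beside miR-21-5p, had 18 counts with manganese and 25 in the control, a fold of 0.730 (0.375 to 1.39) that did not pass the rule. The summed counts of the seed were 235833 with manganese and 285204 in the control, of which miR-21-5p made up 99.992% with manganese and 99.991% in the control. The arms of miR-590 were divided the other way from those of miR-21, as miR-590-3p had 296 counts with manganese and 328 in the control, more than its 5p partner.

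The guide sequence of miR-21 also carries the letters CAGAC, known as a Smad-binding element that lets Smad proteins promote Drosha cleavage of some hairpins under TGF-beta signals. Searched in the mature sequences as written, on the RNA strand only, CAGAC was found in 43 of 2370 (1.81%), and 5 of these were measured entries. The 3 that belong to known Smad-processed miRNAs are shown with these letters in capitals.
hsa-miR-21-5p: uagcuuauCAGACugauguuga
hsa-miR-421: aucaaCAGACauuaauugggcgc
hsa-miR-105-5p: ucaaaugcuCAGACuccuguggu

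None of the 5 measured holders of CAGAC passed the rule, which 12.9% of all measured entries passed as higher and 6.45% as lower, so with 5 entries this is near the background. Folds lay below 1 in 5 of them with TMM factors, beside 55.1% of all measured entries, and in 3 without miR-486-5p in the totals, beside 43.4%, where miR-421 and miR-105-5p lay above 1. The entry miR-421 had 84 counts with manganese and 94 in the control (0.907, 0.667 to 1.23), and miR-105-5p had 27 and 31 (0.884, 0.507 to 1.53). The others were miR-2682-5p at 0.666 and miR-509-3-5p at 0.830. Only the interval of miR-21-5p excluded 1-fold. The 5 include miR-21-5p, and their median log2 fold, −0.25 beside −0.08 for all measured entries, was the value of miR-21-5p itself. Of the list of 5 other Smad-processed miRNAs, 3 were measured, and 1 of these passed the rule as higher, beside 12.9% of all measured entries. It was the entry that joins the 3p arms of miR-199b and miR-199a, known from mesenchymal cells, with 76 counts with manganese and 25 in the control (3.08, 1.94 to 5.06).

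The folds of microRNAs listed here as induced, like miR-21, by AP-1, STAT3 or NF-kB lay on both sides of 1. Their induction by these factors was not tested in these cells. Of 9 on the list 8 were measured, 4 of them below 1 under each of the 6 scalings. Over all measured entries 55.1% lay below 1 with TMM factors and 43.4% without miR-486-5p in the totals. Of these 8, 0 passed the rule as higher, beside 12.9% of all measured entries, and 2 as lower, beside 6.45%. Without miR-486-5p in the totals 1 passed as lower, miR-212-3p, beside 3.72%. With TMM factors the median log2 fold was −0.12 beside −0.08 for all measured entries. The most abundant was miR-221-3p, with 24381 counts with manganese and 36676 in the control (0.674, 0.664 to 0.685). The inflammation-linked miR-155-5p had 3180 counts with manganese and 2811 in the control (1.15, 1.09 to 1.21). The STAT3-linked miR-181b-5p had 2902 counts with manganese and 6025 in the control (0.489, 0.467 to 0.511), and miR-222-3p, the cluster partner of miR-221, had 2730 and 3779 (0.733, 0.697 to 0.770). The other entry lower by the rule was miR-212-3p, with 14 and 37 counts (0.384, 0.192 to 0.727). The other entries above 1 were miR-146a-5p at 1.22 (1.04 to 1.44) and miR-146b-5p at 1.40 (1.10 to 1.79), known as brakes on NF-kB signalling, and miR-132-3p, the cluster partner of miR-212, at 1.63 (1.11 to 2.41). With TMM factors, intervals lay above 1-fold in 4 of the 8, beside 21.3% of all measured entries. They lay below 1-fold in the other 4, beside 28.5%. By total counts 3 intervals lay above 1-fold and 4 below.

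Within 1000 kb of MIR21, the other hairpins with counts were MIR454 and MIR301A, 703 kb and 690 kb away. The entry miR-454-3p had 871 counts with manganese and 1171 in the control (0.755, 0.690 to 0.824), whereas miR-301a-3p had 1934 and 1598 (1.23, 1.15 to 1.31). The 5p arms were sparser, with 31 and 56 counts of miR-454-5p (0.562, 0.350 to 0.886) and 3 and 5 of miR-301a-5p, which was not measured. Both arms of miR-454 thus lay below 1 and the 3p arm of miR-301a above it. None of the measured arms passed the rule, which 12.9% of all measured entries passed as higher and 6.45% as lower. With so few arms this is near the background.

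Markers of other cells differed between the libraries, and their counts enter the shares of all counts given above, though not the shares within a hairpin or a seed. The 11 blood cell markers, all with counts in the manganese library and 4 at 0 in the control, had 16.2% of all counts with manganese and 0.909% in the control, and all 7 measured ones were higher by the rule, beside 12.9% of all measured entries. The placental 19q13 list had 844 counts with manganese and 71 in the control, and the 5 mesenchymal markers, of which miR-214-3p was at 0 in both libraries, had 3063 and 1102. Most of these mesenchymal counts were of miR-10b-5p, with 2631 with manganese and 1049 in the control. All 3 measured mesenchymal markers were higher by the rule, beside 12.9% of all measured entries, while miR-145-5p, not measured, had 2 and 2 counts. The 6 epithelial markers of the labelled cell type were sparse, with 224 counts together with manganese and 112 in the control, and miR-141-3p had 2 and 0. Of the 3 measured epithelial markers, 2 passed the rule as higher, miR-200b-3p and miR-429, beside 12.9% of all measured entries. The intervals of all 3 lay above 1-fold, as did those of 21.3% of all measured entries. The fold of miR-21-5p without the blood cell and 19q13 lists in the totals is given above. In such bulk libraries fewer cells of a type and less RNA per cell cannot be told apart, and whether RNA of other cells contributed counts of miR-21 itself was not tested.

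The authors' deposited table of count differences, manganese minus control, gave −49364 for miR-21-5p and 0 for miR-21-3p. In the authors' deposited table miR-21-5p had the most negative difference of all 2904 entries, equal to 29.9% of the sum of the negative differences. These differences are not scaled for library size, and they can be larger for more abundant entries. The entry miR-21-5p held 26.8% of all control counts. Of 56 other entries with at least 1000 counts in each library, 20 had a lower fold.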

How the data were processed

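The deposited table gave whole-number counts per mature miRNA entry, 1 column per library, with hg38 as the build per the submitters' processing notes. No source used here names the aligner, counter, annotation or filters. Columns were assigned by names that match the sample descriptions. A second deposited table held manganese minus control counts in 2904 of 2904 entries (tolerance 0 counts).

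TMM factors were 0.981 (manganese) and 1.02 (control), from edgeR 4.0.16 in R 4.3.3. Size factors of DESeq2 1.42.0, an alternative, were 1 in each library. Folds have exact conditional binomial 95% intervals, shares have Clopper-Pearson intervals and arm ratios have log-normal intervals (scipy 1.17.1, Python 3.11.15). A count of 0 was set to 3 counts. One count was worth 0.935 (manganese) and 0.921 (control) CPM of scaled counts. The calculations were tested on simulated data. RefSeq sequences (GRCh38.p14) matched 1 of the 2 members and 340 of 403 measured entries by name.

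Named miRNAs were both arms, seed mates, up to 4 abundant members of each list, the 10 most abundant entries, the 5 nearest folds per arm, the 5 nearest arm changes and the 5 furthest each way. Members of lists passing the rule or holding CAGAC, the remaining measured AP-1, STAT3 or NF-kB members, chromosome 17 neighbours and one-sided hairpins were named with their values already seen. The members, lists and rules were chosen with earlier results of these data known. A further list of miRNAs grouped by a shared target is not reported here.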

Additional observations from a re-analysis of the deposited data

How the results depend on the processing

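With 1 library per group there was no replicate to leave out, and no paired analysis was possible because each group held 1 library. The fold of miR-21-5p, 0.839 with TMM factors, was 0.807 by total counts, 0.827 by DESeq2 size factors, 0.954 without the 5 most abundant entries in the totals, 0.952 without miR-486-5p and 0.954 when the blood cell and 19q13 lists were left out. The difference of its shares was −1.30 percentage points without miR-486-5p in place of −5.18. Measured entries passing the rule as higher numbered 82 with no filter and 17 with at least 100 counts, in place of 52. Those passing as lower numbered 15 under each of the 3 scalings by reduced totals, 10 with at least 100 counts and 57 with a rule of 1.5-fold, in place of 26. With at least 100 counts of the rarer arm, which leaves 33 hairpins and drops miR-21, 5 had changed arm ratios in place of 16. With a minimum of 100 counts in each library, which admits more entries, the ranks of the folds from the lowest changed. For miR-21-5p the rank was 64 beside 145 other entries, in place of 21 beside 56. For miR-21-3p it was 103 beside 146 other entries, in place of 39 beside 57. The counts of miR-21-3p lie below both minima, and its wide interval leaves its rank unresolved. Beyond the construction of each alternative, the cause was not tested. The other 20 values, among them every fold of miR-21-3p and the arm ratio change as a share of both arms, were counted as unchanged. All but the share difference of miR-21-3p stayed within their counting interval or within 1.5 times the count. That difference changed sign without miR-486-5p in the totals, from −6.02e-05 to 0.000372 percentage points, and it has no interval of its own. The depth of miR-21-3p, 26 counts in each library, limits every statement on that arm, while the counting error of miR-21-5p is small beside the spread of its fold over scalings.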

Other observations

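The guide miR-21-5p begins with U, as did most counts of both libraries. Entries with a RefSeq sequence that begins with U held 87.9% of the counts of such entries with manganese and 86.6% in the control. Among 70 of the 83 hairpins with sequences for both arms, the commoner arm began with U in 41 (58.6%) and the rarer arm in 13 (18.6%), while C began the commoner arm in 13 and the rarer arm in 28. These are counts over hairpins that share 2 libraries, and no cause was tested.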
